A study of Canis lupus familiaris with 186 samples.

Results

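The tumor necrosis factor (TNF) superfamily was followed in primary canine osteosarcoma through the 24 rows of the count table whose symbols begin with TNFSF (ligands) or TNFRSF (receptors) followed by a number. They were 10 ligands and 14 receptors among 37952 rows. A further 4 rows with such symbols, the RANK ligand, RANK and osteoprotegerin genes and the plasma cell receptor TNFRSF17, were left out by the same rule. The samples were 186 tumors of pet dogs with appendicular osteosarcoma, 93 from the trial COTC021 and 93 from COTC022, each sequenced once. Per the study's methods, all biopsies were taken before treatment from dogs without macroscopic metastasis, so the dogs of both trials were untreated when sampled. They went on to amputation and carboplatin, with or without rapamycin. The dogs differed in breed, age and sex, and each sample was a piece of bulk tumor with no sorting of cells.

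Ligands of this family are mostly made as trimers on the cell surface, and some are cut free into the surroundings. They bind receptors that recruit TRAF adaptors and switch on NF-κB and MAP kinases, or, where the receptor has a death domain, can recruit caspases. Many members carry signals between immune cells. OX40 (TNFRSF4), GITR (TNFRSF18), CD137 (TNFRSF9) and CD30 (TNFRSF8) are costimulatory receptors of activated T cells. BAFF (TNFSF13B) and APRIL (TNFSF13), made largely by myeloid cells, sustain B cells and plasma cells. Other members act mostly outside the immune system, such as Fn14 (TNFRSF12A), a receptor induced in injured tissue, and TROY (TNFRSF19), an orphan receptor of developing epithelium, nerve and mesenchyme.

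Library totals ranged from 6587637 to 27420866 counts, and 50 libraries whose column names use a doubled separator were deeper than the other 136, with medians of 19440500 and 9851690, although the ranges overlapped. Of these 50, called the deeper libraries here, 18 came from COTC021 and 32 from COTC022. What the separator stands for is not given in the sources used here. The bone-forming cell genes that mark osteosarcoma were present: COL1A1 was between 328 and 112300 CPM (counts scaled by the library total), and IBSP had a median of 722 CPM and was at 0 in 1 tumor. One COTC022 tumor stood apart from the rest. It had the lowest osteoblast marker score and the lowest COL1A1 of the 186, the highest score of T cell markers, and 880 CPM of CD3E against a median of 2.88 in the other tumors. It also held the highest value of 6 members, namely TNFSF8, TNFRSF14, TNFRSF1B, TNFRSF25, TNFRSF18 and TNFRSF4. Fits of the members that passed the low-count filter described below were therefore also run without it. This leaves out TNFRSF18 and TNFRSF4, which were below that filter.

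The members differed widely in how often they were detected and in their spread between tumors. CPM values are not divided by transcript length, so they are compared here between tumors and not between genes. Past the low-count filter (10 or more counts, scaled to the median depth, in enough libraries) were 7 ligands and 9 receptors, 16 members in all. The other 8 were TNFSF4, TNFSF14, TNFSF15, TNFRSF4, TNFRSF8, TNFRSF9, TNFRSF13B and TNFRSF18.

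Among the ligands, TRAIL (TNFSF10), a ligand of death receptors, was between 0.781 and 119 CPM with a median of 14.2. TWEAK (TNFSF12), the ligand of Fn14, was between 1.10 and 20.5 CPM with a median of 5.84, and its upper quartile was only 1.67 times its lower one. This was the narrowest spread of the members for which the ratio could be taken, which leaves out TNFSF14 and TNFRSF13B. APRIL (TNFSF13) was between 0.314 and 34.2 CPM, with a median of 3.35. BAFF (TNFSF13B) was between 0.202 and 34.7 CPM, with a median of 2.42. Both were therefore detected in every tumor, and in both the highest tumor came from COTC021.

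CD30 ligand (TNFSF8) had a median of 1.40 CPM and was at 0 in 2 tumors. Its highest value, 97.2 CPM, was in the COTC022 tumor that stood apart, and the next tumor had 18.9 CPM. CD137 ligand (TNFSF9) was between 0.214 and 39.7 CPM with a median of 3.29. GITR ligand (TNFSF18) was at 0 in 5 tumors and reached 102 CPM, with a median of 1.84 and an upper quartile 6.29 times its lower one. OX40 ligand (TNFSF4) had a median of 0.311 CPM and a highest value of 33.7 CPM, and was at 0 in 35 tumors. TL1A (TNFSF15), the ligand of DR3, reached 9.20 CPM and was at 0 in 13 tumors. LIGHT (TNFSF14), a ligand of HVEM, was at 0 in 164 of the 186 tumors and never exceeded 5 counts, so little can be said of it at this depth.

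Among the receptors, the TNF receptor that most cell types carry (TNFRSF1A) was between 14.9 and 183 CPM with a median of 63.7. The TNF receptor found mainly on leukocytes and endothelium (TNFRSF1B) was between 2.36 and 155 CPM with a median of 17.8. The next highest TNFRSF1B value after the tumor that stood apart was 119 CPM. DR6 (TNFRSF21), a death domain receptor, was between 10.3 and 206 CPM, and HVEM (TNFRSF14), a receptor for LIGHT on lymphoid and myeloid cells, between 1.09 and 103 CPM. The BAFF receptor (TNFRSF13C) was between 1.33 and 18.3 CPM and was counted 10 or more times in all 186 tumors.

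TROY (TNFRSF19) had a median of 70.8 CPM and the widest range of the receptors counted in every tumor, from 0.949 to 497 CPM. Its lowest value was in the tumor that stood apart. Fn14 (TNFRSF12A) was between 4.98 and 294 CPM. The death domain receptor DR3 (TNFRSF25) had a median of 2.94 CPM and a highest value of 41.1 CPM, in that same tumor, and was at 0 in 1 tumor. Decoy receptor 3 (TNFRSF6B), a soluble receptor without a membrane anchor, had a median of 1.24 CPM, but 1 COTC022 tumor had 75.2 CPM and the next 35.0 CPM.

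The costimulatory receptors were low in most tumors and high in a few. GITR (TNFRSF18) had a median of 0.736 CPM and reached 25.1 CPM. OX40 (TNFRSF4) had a median of 0.209 CPM and reached 19.4 CPM, and was at 0 in 46 tumors. CD137 (TNFRSF9) had a median of 0.213 CPM and reached 9.10 CPM. CD30 (TNFRSF8) had a median of 0.300 CPM, with 37.4 CPM in 1 COTC021 tumor and 6.37 CPM in the next. TACI (TNFRSF13B), a receptor for BAFF and APRIL, was at 0 in 79 tumors and reached 3.88 CPM. For every one of the 24 members, the ranges of the 2 trials overlapped.

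**Figure D1:**
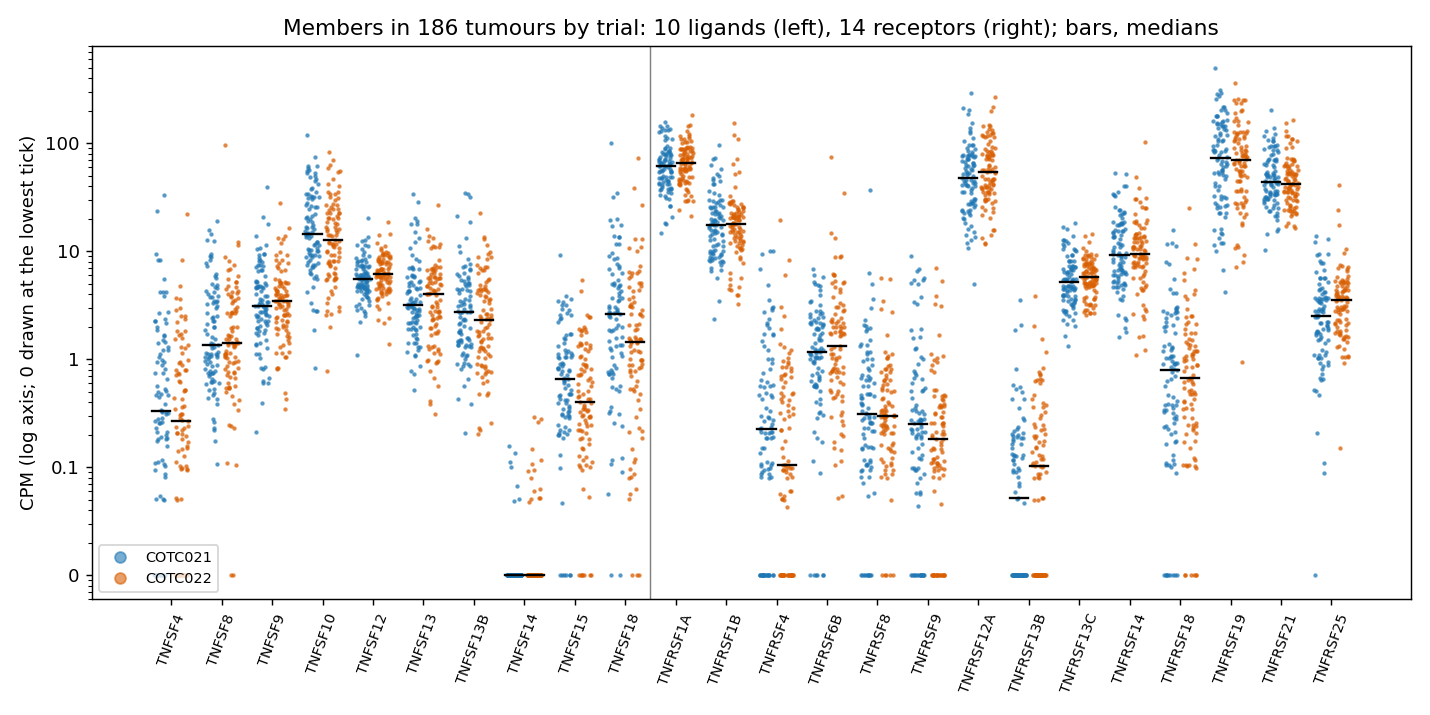
CPM of the 24 members (log axis, with 0 drawn at the lowest tick) in 186 tumors, 1 point per tumor, with COTC021 in blue, COTC022 in orange and the median of each trial as a bar. The trials overlapped for every member, TNFSF14 lay at 0 in 164 tumors, and TNFSF8 and TNFRSF6B each had 1 COTC022 tumor far above the others, at 97.2 and 75.2 CPM.

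The members were then set against GS-1, a signature that the study took from earlier work and used to divide the dogs. The 27 genes of it that remained after the study's low-count filter were used here. They include CCR1, CCR2, C1QB, VSIG4, ITGAL and IKZF1, which are known from macrophages and lymphocytes, and no member is among them. The score was the mean of the standardized values of the 27 genes in each tumor, scaled to an SD of 1, and slopes are differences in log2 CPM per SD of the score, with trial in the model. Of the 16 members past the filter, 12 were higher and 1 was lower with the score, and 3 did not pass the test (limma-voom, adjusted p under 0.05 over 13422 genes). Of all genes tested, 22.3% were higher and 26.2% were lower. The median slope was 0.36 for the 16 members and -0.019 for all genes.

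The largest slopes belonged to ligands. That of CD30 ligand (TNFSF8) was 1.20 ± 0.046 (SE, adjusted p = 1.9e-62), that of BAFF (TNFSF13B) 1.02 ± 0.045 (adjusted p = 4.8e-54) and that of APRIL (TNFSF13) 0.89 ± 0.042 (adjusted p = 5.0e-50). TRAIL (TNFSF10) had a slope of 0.75 and CD137 ligand (TNFSF9) one of 0.56, which was 0.36 with both edgeR and DESeq2 and passed with each. TWEAK (TNFSF12), with 0.19 ± 0.041, had the smallest slope of the 6 called ligands. GITR ligand (TNFSF18) had a slope of -0.11 ± 0.16 with an adjusted p of 0.58, so its interval takes in 0.

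Of the receptors, HVEM (TNFRSF14) with 0.85 ± 0.039 and TNFRSF1B with 0.76 ± 0.041 had the steepest slopes, with adjusted p values of 6.8e-52 and 1.8e-42. DR6 (TNFRSF21) followed with 0.42, TNFRSF1A with 0.30 and the BAFF receptor (TNFRSF13C) with 0.15. The 2 SE intervals of TNFRSF1A and TNFRSF1B did not overlap, but the difference between their slopes was not itself tested. DR3 (TNFRSF25) had a slope of 0.29 ± 0.079, but without the tumor that stood apart it was 0.18, with an adjusted p of 0.080. Fn14 (TNFRSF12A, 0.03 ± 0.074) and decoy receptor 3 (TNFRSF6B, -0.09 ± 0.13) did not pass the test.

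TROY (TNFRSF19) was the member that was lower with the score, by -0.52 ± 0.095 (adjusted p = 1.7e-06). Without the tumor that stood apart its slope was -0.42 and still passed, with an adjusted p of 0.00015. The slope of TROY in COTC021 was -0.46, and in COTC022 -0.55.

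**Figure D2:**
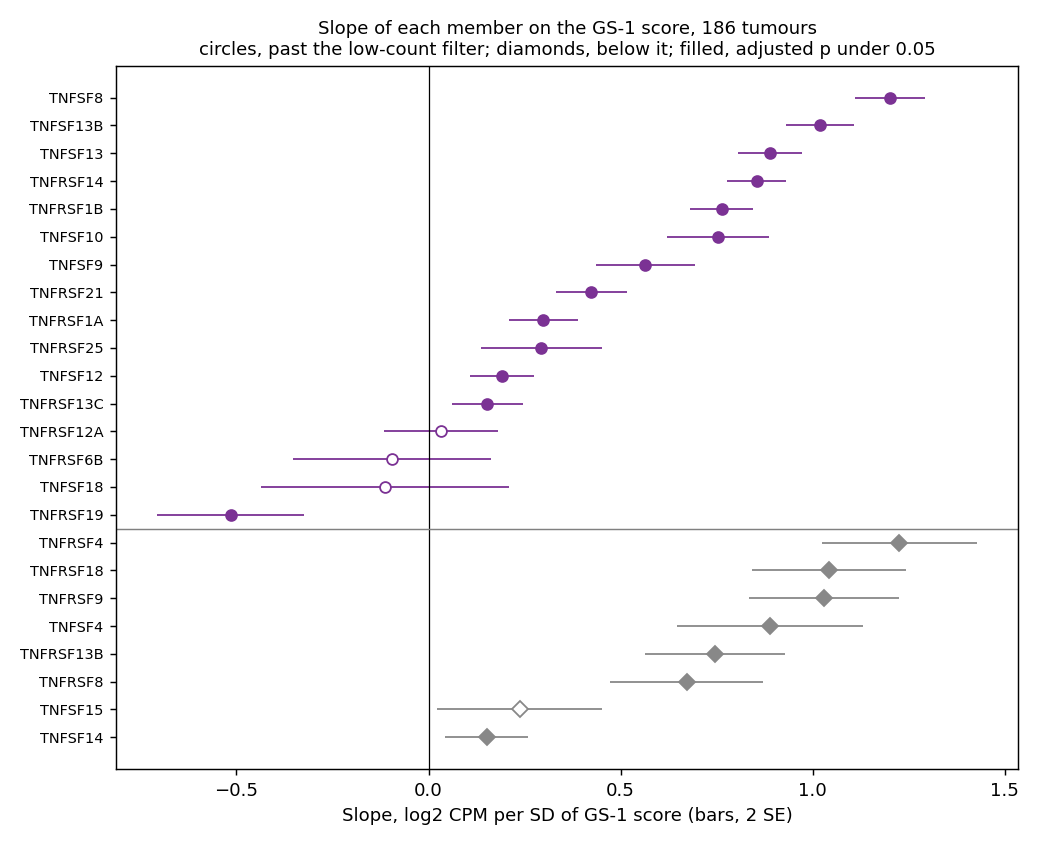
Slope of each member on the GS-1 score in log2 CPM per SD of the score, with bars of 2 SE over 186 tumors. Circles are the 16 members past the low-count filter and diamonds the 8 below it, filled where the adjusted p was under 0.05: TNFSF8 had the highest slope of the circles (1.20) and TNFRSF19 the lowest (-0.52).

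Within COTC021 alone, 11 of the 13 called members passed the test, and within COTC022 alone all 13 did. TNFSF8 had slopes of 1.13 and 1.25 in the 2 trials, TNFSF13B of 1.13 and 0.91, TNFSF13 of 0.97 and 0.81, TNFRSF14 of 0.86 and 0.83, and TNFRSF1B of 0.77 and 0.75. The 2 members that missed the threshold in COTC021 were TNFRSF25 (0.31, adjusted p = 0.076) and TNFRSF13C (0.15, adjusted p = 0.15). In the product of score and trial, 0 members passed with limma-voom, and TNFSF13B alone had an unadjusted p under 0.05 (0.0123, adjusted p = 1.00). Of all 13422 genes, likewise, 0 passed after adjustment and 2.79% had an unadjusted p under 0.05. In the deeper libraries alone 12 of the 13 passed, and in the others 11. The share of all called genes that passed within each trial or set of libraries was not computed. These counts therefore do not show a trait of the members.

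**Figure D3:**
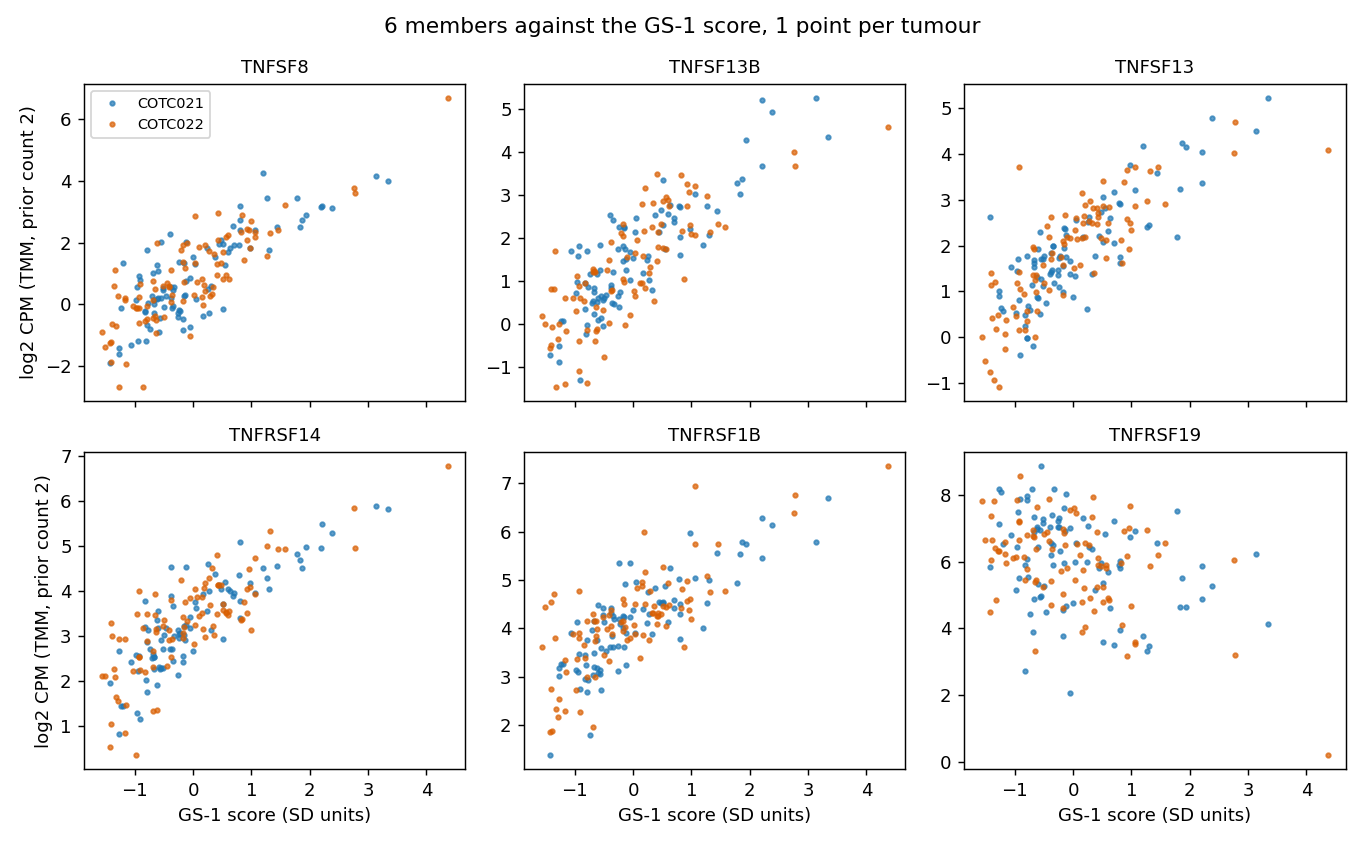
Level of 6 members (log2 CPM after TMM normalization, prior count 2) against the GS-1 score in SD units, 1 point per tumor in each of COTC021 (blue) and COTC022 (orange). TNFSF8, TNFSF13B, TNFSF13, TNFRSF14 and TNFRSF1B rose with the score in both trials, and TNFRSF19 fell. The single point at a score of 4.37 is the COTC022 tumor with the highest T cell marker score.

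The 8 members below the filter were read from a fit without it, over 30041 genes, in which 14.2% of all genes were higher with the score. In it 7 of the 8 were higher. OX40 (TNFRSF4) had a slope of 1.23 ± 0.10, GITR (TNFRSF18) of 1.04 ± 0.10 and CD137 (TNFRSF9) of 1.03 ± 0.098. OX40 ligand (TNFSF4) followed with 0.89, TACI (TNFRSF13B) with 0.75 and CD30 (TNFRSF8) with 0.67. TL1A (TNFSF15) had 0.24 ± 0.11, with an adjusted p of 0.090. LIGHT (TNFSF14) passed with a slope of 0.15, which rests on 22 tumors with any count. All 8 had low counts, with medians of 8 or fewer, so their slopes depend more on the handling of zeros than those of the other 16. These slopes were not refitted without the tumor that stood apart, which held the highest OX40 and GITR values.

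Family members with names of another kind were read from the same fits. Of 8 listed receptors 7 had a row and 5 passed the filter. CD40 (0.62 ± 0.047), the receptor of B cells and macrophages for T cell help, FAS (0.40 ± 0.082), a death receptor, and RELT (0.37 ± 0.053) were higher with the score. LTBR, the lymphotoxin β receptor, had a slope of -0.02 ± 0.037 and the neurotrophin receptor NGFR one of 0.02 ± 0.15, and neither passed. Of the 7 listed ligands EDA alone passed the filter, with a slope of 0.00 ± 0.13. In the fit without the filter, CD27, a receptor of T cells and memory B cells, had a slope of 1.75 ± 0.076. There LTB had 1.61, FASLG 1.55, CD40LG 0.73, TNF itself 0.66, CD70 0.63 and LTA 0.45, all past the threshold, and EDAR had -0.22 with an adjusted p of 0.063.

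Of the genes that carry the signal inside the cell, 39 of 40 listed had a row and all 39 were tested. With the score 27 were higher and 1 was lower, and 11 did not pass, with a median slope of 0.15, against the 22.3% higher and 26.2% lower of all genes. The steepest were BIRC3, an inhibitor of apoptosis bound to TRAF proteins (0.67 ± 0.080), TNFAIP3, the NF-κB inhibitor A20 (0.55 ± 0.054), CFLAR, an inhibitor of caspase 8 (0.48 ± 0.041), and CASP8 itself (0.47 ± 0.057). TAB2, an adaptor of the kinase TAK1, was the one that was lower, by -0.06 ± 0.027 with an adjusted p of 0.044.

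The GS-1 score moved with markers of immune cells. Over the 186 tumors its Pearson r with the score of 10 macrophage markers was 0.869 and its Spearman rho 0.909, with an r of 0.855 in COTC021, 0.884 in COTC022 and 0.872 without the 2 tumors farthest from its median. With the score of T cell markers, of which 6 of 10 passed the filter, r was 0.794 and rho 0.682, with an r of 0.828 in COTC021, 0.762 in COTC022 and 0.747 without the 2 farthest. All 4 of these coefficients had a permutation p of 1e-05, the smallest that 100000 permutations can give, raw and adjusted over the 2 scores. Since GS-1 itself holds genes known from macrophages and lymphocytes, a relation was built in, and these p values add no separate evidence. The part of these markers in the slopes on the GS-1 score was not tested. The joint fit that follows cannot decide it, since it does not hold the GS-1 score. The summed level of the 10 macrophage markers ran from 112 to 3806 CPM in COTC021 and from 109 to 6938 CPM in COTC022. That of the 10 T cell markers ran from 4.75 to 951 CPM and from 4.36 to 3952 CPM, and none of the markers was at 0 in every tumor. B cell and plasma cell markers summed to between 6.26 and 4455 CPM in COTC021 and between 3.65 and 2981 CPM in COTC022. Since these are bulk samples, more cells of a type and more RNA per cell cannot be told apart.

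The members were also fitted on 10 marker scores at once, together with trial and without the GS-1 score. The neutrophil and adipocyte scores each rested on 3 of 6 listed genes. The scores overlapped, with a Spearman rho of 0.52 between macrophage and T cell and 0.282 between macrophage and osteoclast. Slopes on such scores are therefore separated only in part. On the macrophage score 9 of the 16 members passed, all higher, with 11.6% of all genes passing in either direction. APRIL (TNFSF13) had the steepest macrophage slope, 0.97 ± 0.066, followed by BAFF (TNFSF13B) with 0.83 ± 0.094, CD30 ligand (TNFSF8) with 0.68 ± 0.11, TNFRSF1B with 0.63 ± 0.063, TNFSF9 with 0.45 and TNFRSF14 with 0.45. TNFSF10 with 0.32, TNFRSF1A with 0.23 and TNFRSF21 with 0.21 made up the 9. TNFSF10 did not pass without the tumor that stood apart (0.30, adjusted p = 0.053), and with edgeR neither TNFSF9 (0.26, adjusted p = 0.13) nor TNFRSF21 (0.14, adjusted p = 0.18) did.

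On the T cell score 7 members passed, 6 of them higher, with 14.3% of all genes passing. DR3 (TNFRSF25), a receptor of T cells, had the steepest slope with 0.65 ± 0.091, and without the tumor that stood apart its slope was 0.58. TNFSF8 had 0.48 ± 0.074, TNFRSF14 0.41 ± 0.046, TNFSF10 0.28, TNFSF13B 0.28 and TNFRSF1B 0.18. TNFSF10 did not pass on this score with edgeR (0.23, adjusted p = 0.10) or without the low-count filter (0.23, adjusted p = 0.056). Fn14 (TNFRSF12A) was lower with the T cell score, by -0.40 ± 0.086. TNFSF8, TNFRSF14, TNFRSF1B, TNFSF10 and TNFSF13B thus passed on both immune scores. TNFSF13 passed on the macrophage score, but its T cell slope did not pass over all tumors (0.11, adjusted p = 0.12). Without the tumor that stood apart that slope was 0.18 and passed.

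Without the low-count filter 7.82% of all genes passed on the T cell score, and 5 of the 8 members below the filter did, all of them receptors and all higher. OX40 (TNFRSF4) had a slope of 1.33 ± 0.11, CD137 (TNFRSF9) of 1.26 ± 0.11, GITR (TNFRSF18) of 0.83 ± 0.12, CD30 (TNFRSF8) of 0.73 ± 0.12 and TACI (TNFRSF13B) of 0.62 ± 0.12. None of these 5 receptors passed on the macrophage score in that fit. There GITR had a slope of 0.42 ± 0.17 (adjusted p = 0.20), and the others were between -0.032 and 0.19. The share of all genes passing on the macrophage score without the filter was not computed. At these low counts, a slope that did not pass does not show that a receptor was unrelated to the score. The fit was not repeated without the tumor that stood apart, which had the highest T cell score and the highest OX40 and GITR values. The low-count ligands TNFSF4, TNFSF14 and TNFSF15 did not pass on the T cell score. No B cell score was in this fit, so how far TACI varied with B cells rather than T cells was not tested.

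On the osteoblast score 6 members passed, with 23.8% of all genes passing. TROY (TNFRSF19) was higher by 0.55 ± 0.11 and TNFRSF25 by 0.30 ± 0.096. TNFSF10 was lower by -0.40 ± 0.082, TNFRSF12A by -0.38 ± 0.079, TNFSF9 by -0.24 and TNFRSF1A by -0.14. The TNFSF9 call was lost with edgeR (-0.17, adjusted p = 0.16) and without the low-count filter (adjusted p = 0.064). TROY also passed on the cartilage score (0.29 ± 0.091), as the single member there against 9.26% of all genes, a call lost with edgeR (0.27, adjusted p = 0.065) and without the low-count filter (0.27, adjusted p = 0.056). It passed on neither immune score (T cell 0.12 ± 0.12, macrophage -0.15 ± 0.13). On the osteoclast score 4 members passed, against 16.6% of all genes: TNFSF13B (-0.33), TNFSF8 (-0.27) and TNFSF13 (-0.27) were lower and TNFRSF14 (0.21) was higher.

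On the proliferation score 8 members passed, near the 42.4% of all genes that did. Of these TNFSF12 had the steepest slope, -0.35 ± 0.042, which was also its one call in the joint fit, and TNFRSF19 was the one that was higher (0.28). The BAFF receptor TNFRSF13C (-0.18) was called on no other score. The endothelial score, with 11.7% of all genes, had 3 calls: TNFRSF21 (0.20), TNFRSF1A (0.18) and TNFRSF1B (0.15), the last lost with edgeR (adjusted p = 0.064). The neutrophil score had 2 against 5.53%, TNFRSF12A (0.23) and TNFRSF1B (0.14), and both were lost without the low-count filter and with scores on TMM-normalized values. The skeletal muscle score had TNFSF13B (0.21) against 3.03%, lost with edgeR (0.13, adjusted p = 0.36). The adipocyte score had TNFRSF12A (-0.29) against 3.29%, lost with scores on TMM-normalized values (-0.22, adjusted p = 0.10). TNFSF18 and TNFRSF6B were called on none, but without the tumor that stood apart TNFSF18 was lower with the osteoblast score (-0.52, adjusted p = 0.0062) and the adipocyte score (-0.59, adjusted p = 0.038). In all there were 42 calls, and 45 without the tumor that stood apart. Within COTC021 and COTC022 alone there were 20 and 21, with fewer tumors in each fit, and the cause of the drop was not tested. Matching totals over all genes were not computed, so the drop is not read as a trait of the members.

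**Figure D4:**
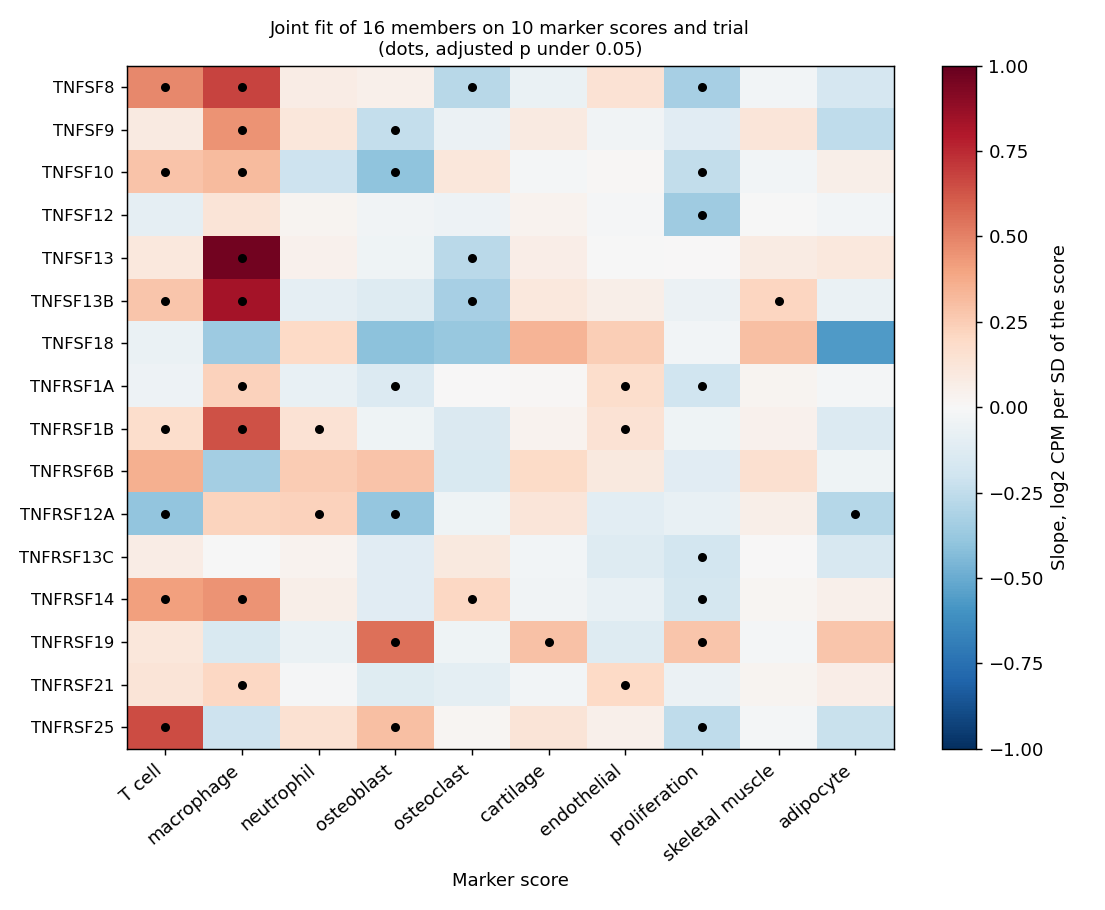
Slopes of the 16 members (rows) on 10 marker scores (columns) fitted together with trial, as log2 CPM per SD of the score from blue (lower) to red (higher), with a dot where the adjusted p was under 0.05. The macrophage column holds 9 dots, the darkest at TNFSF13 (0.97), and TNFRSF19 stands out in the osteoblast column (0.55).

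Between the trials, 0 of the 16 members differed with limma-voom at an adjusted p under 0.05, 2 had an unadjusted p under 0.05, and edgeR and DESeq2 each called 1. Of all genes, limma-voom called 0.0149% higher and 0% lower in COTC022 and gave 9.92% an unadjusted p under 0.05, while edgeR called 0.663% higher and DESeq2 0.305%. The 2 members were DR3 (TNFRSF25), by 0.57 ± 0.17 on the log2 scale (adjusted p = 0.19), with medians of 2.504 CPM in COTC021 and 3.54 CPM in COTC022, and GITR ligand (TNFSF18), by -0.73 ± 0.31 (adjusted p = 0.41), with medians of 2.62 and 1.45 CPM. The member called by the other tools was decoy receptor 3 (TNFRSF6B), higher in COTC022 by 1.08 with edgeR (adjusted p = 0.012), where limma-voom gave 0.34 ± 0.25. Its medians were 1.18 and 1.34 CPM, and without its highest tumor edgeR gave 0.72 with an adjusted p of 0.11. For TNFRSF1B the difference was 0.01 ± 0.14 and for TNFSF9 -0.01 ± 0.17.

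Ligands were next compared with their own receptors across tumors, on log2 CPM after TMM normalization. Of 19 known pairs, 2 had both genes past the filter, and p values come from 100000 permutations of the tumors, two-sided, of which 1e-05 is the smallest possible. TWEAK and Fn14 (TNFSF12 and TNFRSF12A) had a Pearson r of 0.202 (permutation p = 0.0051, adjusted over the 2 pairs 0.010) and a Spearman rho of 0.212 (permutation p = 0.0034, adjusted 0.0069) over 186 tumors. Without the 2 tumors farthest from the TNFSF12 median r was 0.167. The r in COTC021 was 0.352 and that in COTC022 0.0055, so the relation did not hold within COTC022. BAFF and its receptor (TNFSF13B and TNFRSF13C) had an r of 0.059 (permutation p = 0.42, adjusted 0.42) and a rho of 0.032 (permutation p = 0.66, adjusted 0.66). Its r was 0.072 in COTC021 and 0.065 in COTC022, and -0.0050 without the 2 farthest tumors. With the GS-1 score and trial held, an alternative added after the data had been seen, it was -0.203 and passed (adjusted permutation p = 0.0090).

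A further 8 pairs with a gene below the filter were run after the data had been seen, adjusted over those 8, and 6 of them passed. OX40 ligand and OX40 (TNFSF4 and TNFRSF4) had an r of 0.461 and a rho of 0.399 (adjusted permutation p = 2e-05 and 4e-05), with an r of 0.573 in COTC021, 0.306 in COTC022 and 0.402 without the 2 farthest tumors. GITR ligand and GITR (TNFSF18 and TNFRSF18) had an r of 0.222 and a rho of 0.223 (adjusted permutation p = 0.0034 and 0.0035), with an r of 0.344 in COTC021, 0.0966 in COTC022 and 0.209 without the 2 farthest. TACI with BAFF had an r of 0.469, TACI with APRIL 0.432, CD30 with its ligand 0.371 and CD137 with its ligand 0.332. Once the GS-1 score and trial were held, OX40 with its ligand (r = 0.247, adjusted permutation p = 0.0022) and GITR with its ligand (r = 0.293, adjusted permutation p = 0.00056) still passed, while the other 4 were between -0.046 and 0.113 and did not. TNFSF15 passed with neither TNFRSF25 (r = 0.016) nor TNFRSF6B (r = -0.078). The other 9 pairs were not run, since LIGHT, TNF or LTA was at 0 in 93 tumors or more, or the receptors of TRAIL were not among the rows used here.

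The members also moved with one another. Of the 120 pairs among the 16 members, 70 had an adjusted permutation p under 0.05, 57 of them positive and 13 negative. The share of passing pairs among other genes was not computed, so these counts do not show a trait of the family. TNFRSF14, TNFRSF1B, TNFSF13, TNFSF13B and TNFSF8 correlated most closely, and the highest r was that of TNFRSF14 with TNFRSF1B, 0.724 over all tumors, 0.713 in COTC021 and 0.734 in COTC022. All 13 negative pairs held TNFRSF19, the lowest being TNFRSF19 with TNFSF10 (r = -0.438), at -0.463 in COTC021 and -0.421 in COTC022.

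With the GS-1 score and trial held, 31 pairs passed, 26 positive and 5 negative. Here too no share over pairs of other genes was computed. TNFRSF14 with TNFRSF1B was then 0.224. The highest was Fn14 with GITR ligand (TNFRSF12A and TNFSF18), 0.392, which had been 0.363 before and was 0.444 in COTC021 and 0.328 in COTC022. Neither of these genes had a slope on the score that passed the test. TNFSF13B with TNFSF18 rose from 0.198 to 0.389 and TNFRSF1B with TNFRSF6B from 0.185 to 0.360. TNFRSF19 with TNFSF10 remained negative, at -0.274.

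**Figure D5:**
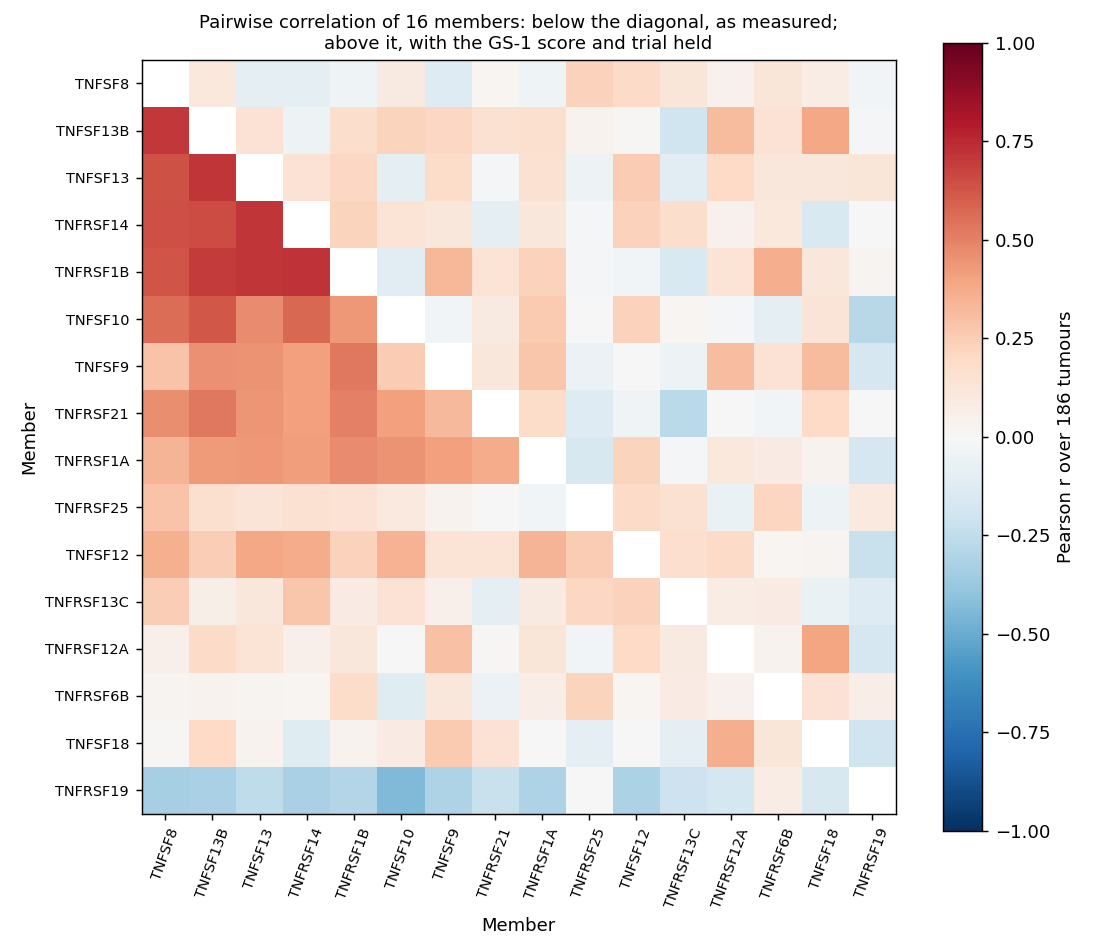
Pearson correlation of each pair among 16 members over 186 tumors, from blue (-1) to red (1), with members ordered by their slope on the GS-1 score. Below the diagonal are the measured values, with the TNFRSF19 row negative against most members and -0.438 against TNFSF10. Above it the GS-1 score and trial are held and the highest value is 0.392, TNFRSF12A with TNFSF18.

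Several members lie next to one another in the dog genome (build UU_Cfam_GSD_1.0). TNFSF12 (chr5:32682308-32689823) and TNFSF13 (chr5:32691425-32693492) are 1.601 kb apart. TNFRSF18 (chr5:56870818-56873370) and TNFRSF4 (chr5:56877316-56880258) are 3.945 kb apart, and TNFRSF1B (chr2:83616667-83643630) and TNFRSF8 (chr2:83661577-83702020) 17.946 kb. TNFSF15 (chr11:69300208-69319429) and TNFSF8 (chr11:69390910-69416891) are 71.48 kb apart, and TNFSF4 (chr7:25780205-25806523) and TNFSF18 (chr7:25879459-25891051) 72.935 kb. TNFSF14 (chr20:54002586-54005871) and TNFSF9 (chr20:54077742-54080911) are 71.87 kb apart, but TNFSF14 was at 0 in 164 tumors and no correlation was computed for this pair.

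The other 5 neighboring pairs were all positively correlated, with adjustment over the 5. They were not tested against pairs of genes that are not neighbors. GITR and OX40 (TNFRSF18 and TNFRSF4) had the highest r, 0.662 (rho 0.521, adjusted permutation p = 1.2e-05 for both), with 0.734 in COTC021 and 0.590 in COTC022, and 0.518 with the GS-1 score and trial held. OX40 ligand and GITR ligand (TNFSF4 and TNFSF18) had an r of 0.482, with 0.482 in COTC021 and 0.466 in COTC022, and 0.559 with score and trial held, although only TNFSF4 was higher with the score. TNFRSF1B with TNFRSF8 had 0.422, TNFSF12 with TNFSF13 0.386 and TNFSF15 with TNFSF8 0.278. The last was 0.468 in COTC021 and 0.082 in COTC022. Whether lying side by side plays a part in the 5 correlations was not tested. TNFRSF13B and TNFRSF6B overlap the genes USP22 and ARFRP1, and TNFRSF14, TNFRSF1B, TNFRSF8, TNFRSF9 and TNFSF15 each overlap 1 or 2 loci without a gene name. The strand setting of the counting is not given in the sources used here, so their counts could hold reads of those genes.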

How the data were processed

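Primary tumors of 186 dogs were profiled by stranded poly(A) RNA sequencing. Per the study's methods and the submitters' processing notes, reads were trimmed with cutadapt, aligned with STAR 2.7.0f to GSD_1.0 and quantified with RSEM 1.3.1. The deposited values are expected counts, which the authors did not normalize. RSEM divides reads that map to several genes, and 3.07% of values were not whole, so all were rounded. Of 198 columns, 12 matched no sample and were not used.

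Members, lists and the GS-1 score were chosen with earlier results of these data known. Trial came from the sample titles. Disease-free interval, survival and the published GS-1 clusters are not in the labels and were not analysed here, so GS-1 entered as a continuous score on quantile-normalized log2(CPM + 2).

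Low-count genes were removed by the function filterByExpr of edgeR 4.0.16, asking for a minimum count of 10, with a minimum proportion of 0.5 and a large-group size of 5. After TMM scaling, R 4.3.3 ran voom from limma 3.58.1, with Benjamini-Hochberg adjustment over all genes tested. Alternatives were edgeR's quasi-likelihood test, DESeq2 1.42.0, its size factors, no filter, other scores and subsets of libraries. Scripts were tested on simulated data. The B cell list had fewer than 3 genes past the filter and was left out of the joint fit. Totals of 6587637 to 27420866 counts set the precision of low genes. Correlations used Python 3.11.15 with numpy 2.4.6 and a prior count of 2. Named genes were all members, all other family genes listed and, of the signalling list, the 4 steepest called slopes in each direction, of which 1 was negative. Gene positions are from RefSeq. Each dog gave 1 sample.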

Additional observations from a re-analysis of the deposited data

How the results depend on the processing

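Along the GS-1 score, 11 of the 16 members kept direction and call under all 13 alternatives. The share of all genes that did so was not computed. Without the low-count filter 19 of 24 members were higher. TNFRSF25 missed the threshold in 4 settings, with 0.14 in the shallower libraries, 0.31 in COTC021, 0.15 without the 2 tumors farthest from the median score and 0.18 without the tumor that stood apart. TNFRSF13C missed it in 3 subsets. Slopes that were not called changed sign for TNFRSF12A (-0.15 in the deeper libraries, -0.0320 in COTC022), TNFRSF6B (0.0278 in COTC021) and TNFSF18 (0.0576 with edgeR, 0.0645 with DESeq2 and 0.13 in COTC021).

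Between trials edgeR and DESeq2 each called 1 member (1.08 for TNFRSF6B with both). Differences that were not called changed sign for TNFRSF14 with edgeR (0.0108), DESeq2 (0.0020), library name as a covariate (0.00965) and the deeper libraries (0.47). They did so for TNFRSF19 (0.15 in the shallower libraries, 0.00807 without the tumor that stood apart), TNFRSF1B (-0.13 and -0.0262 in the same settings) and TNFSF8 (0.24 with edgeR, 0.22 with DESeq2, 0.95 in the deeper libraries). The deeper libraries also turned TNFRSF21 (0.24), TNFSF10 (0.58), TNFSF13 (0.28), TNFSF13B (0.46) and TNFSF9 (0.13), and library name as a covariate turned TNFSF9 (0.0354). The cause was not tested.

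TNFSF9 kept its call on the GS-1 score but had 0.36 with edgeR and DESeq2. Of the 42 joint-fit calls, 31 held in all 6 settings that kept at least all tumors but 1. Joint-fit calls fell from 42 to 20 in COTC021 and 21 in COTC022, each with fewer tumors. The cause of the drop was not tested, and no matching totals over all genes were computed. Of the 2 ligand and receptor pairs, 0 passed in COTC022, where TNFSF12 with TNFRSF12A had an r of 0.0055, or in the deeper or the shallower libraries alone, where it had 0.260 and 0.186 against 0.202 over all, and 2 with score and trial held, when TNFSF13B with TNFRSF13C was -0.203. Settings that leave out the tumor that stood apart, hold the score or add pairs were chosen after seeing the data. No paired analysis was possible because every dog gave 1 tumor and the trials share no dog numbers. Depth limits the 8 members below the filter.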
